A study of Mus musculus with 6 samples.

Results

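Calca and Calcb are the mouse genes for calcitonin gene-related peptide (CGRP), a neuropeptide. They were taken by symbol as 2 of the 5538 genes in a table of transcript abundance from mouse midbrain, and both had a row. The tissue was the perioculomotor region, around the oculomotor nucleus, of C57BL/6 mice. All mice carried CreER, a drug-inducible recombinase, driven by the promoter of the activity-regulated gene Fos, and a Cre-dependent eGFP-L10a reporter, which tags ribosomes. They went through 6 hr of sleep deprivation and 3 hr of recovery sleep, and 4-OHT, the drug that activates the recombinase, was given just before either phase. The series text speaks of the neurons labelled in recovery sleep. The labels of single libraries give neither the phase nor the age of the mice. The 3 IP libraries hold RNA recovered with antibodies against eGFP, and the 3 Input libraries are read here as the RNA of the same kind of tissue before that step. Both groups share the genotype, and each library came from the pooled tissue of 4 to 5 mice, so every spread and p-value below describes pools of mice. Which neurons carry the tag depends on where the Fos promoter was active. In bulk RNA, fewer cells of a type and less RNA per cell cannot be told apart.

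CGRP is a secreted peptide that dilates blood vessels and acts in sensory, autonomic and motor systems. In neurons the Calca transcript is spliced to encode the alpha form of CGRP, whereas thyroid C cells splice the same primary transcript to encode calcitonin. Calcb encodes the beta form and no functional calcitonin. The peptide is stored in dense-core vesicles and acts on a receptor made of Calcrl and the accessory protein Ramp1, which raises cyclic AMP through the G protein subunit Gnas. Cholinergic motor neurons of the brainstem and spinal cord, including those that move the eyes, are known to contain CGRP.

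The coding stretch of the mature peptide is shown first. It lies in the exon that, of those compared, is most alike in the genes and so where reads are hardest to assign. In both genes it spans 111 bases of the fourth exon and encodes 37 residues. It lies at chr7:114632470-114632580 on the minus strand in Calca and at chr7:114721994-114722104 on the plus strand in Calcb (GRCm38, the assembly also called mm10, with GENCODE M21 gene models). Capitals mark the bases that differ.
Calca: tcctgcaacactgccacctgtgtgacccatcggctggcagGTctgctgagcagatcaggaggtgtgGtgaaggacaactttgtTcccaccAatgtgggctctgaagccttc
Calcb: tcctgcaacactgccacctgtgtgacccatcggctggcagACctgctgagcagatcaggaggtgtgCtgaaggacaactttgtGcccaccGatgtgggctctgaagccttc

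Counted from the first base of this stretch, with the Calca base first, the differences are G41A, T42C, G67C, T84G and A91G. They leave 106 of the 111 bases and 34 of the 37 residues identical, and T84G changes no residue. Within this stretch the longest run without a difference is 40 bases. Over the whole transcripts longer runs are shared, as the counts at 50 bases below show. Outside this exon the genes are less alike. Identity over aligned bases was 96.2% in the coding part of the CGRP exon, 76.7% in the first coding exon, 78.3% in the second and 69.7% in the untranslated last exon. Over the annotated transcripts of both genes, 45 stretches of 25 bases were common to Calca and Calcb. That is 2.68% of those of Calca and 3.57% of those of Calcb, and no stretch of that length was shared with the annotated transcript strand of any other gene. At 50 bases, 12 stretches were shared, or 0.715% of those of Calca. The read length (not given in the sources used here) sets how many reads this touches, so how many reads could be assigned to either gene is unknown.

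The other ambiguity is within Calca. Its CGRP form (128 residues) and its calcitonin form (136 residues) share the first 3 exons and part at the junction below, where lower case is the last 40 bases of the shared exon (chr7:114634468-114634507) and capitals are the first 40 bases of the exon that follows (chr7:114632560-114632599 for CGRP, chr7:114633746-114633785 for calcitonin, all on the minus strand).
Calca, CGRP form: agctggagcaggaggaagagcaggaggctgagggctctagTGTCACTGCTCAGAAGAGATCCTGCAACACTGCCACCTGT
Calca, calcitonin form: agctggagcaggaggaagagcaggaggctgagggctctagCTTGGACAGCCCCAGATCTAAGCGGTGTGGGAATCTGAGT

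The deposited table gives 1 value per gene and library, so the Calca values below sum over both splice forms, and the share that encodes CGRP was not measured.

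Abundance is in TPM (reads per transcript length, scaled to one fixed total in every full library). The listed genes summed to between 855954 and 885495 TPM per library. Read depth is unknown. The lowest value in the table is 7, so a gene with no row here cannot be called absent. Libraries IP 1 and Input 3 stood apart. Across genes on the log2(TPM + 1) scale, the correlation of IP 1 with IP 2 and with IP 3 was 0.831 and 0.882, where that of IP 2 with IP 3 was 0.962. For Input 3 against each of the others it was 0.722 and 0.736, where Input 1 against Input 2 gave 0.973. Their median genes were also low, at 27.7 TPM in IP 1 and 31.1 TPM in Input 3, against 51.0 to 67.2 TPM elsewhere. Values are therefore given as deposited, relative to the median gene of the library, and with and without these libraries.

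Calca (ENSMUSG00000030669) lies at chr7:114631478-114636357 on the minus strand. It stood at 104.87, 96.95 and 90.63 TPM in replicates 1 to 3 of IP, and at 31.29, 33.94 and 28.20 TPM in replicates 1 to 3 of Input. Values of 3 libraries are given in this order throughout. The groups were far apart and each was tight: the lowest IP library was 2.67 times the highest Input library. The means were 97.5 ± 7.13 TPM in IP and 31.1 ± 2.87 TPM in Input (SD, n = 3 each), a ratio of 3.13. Within pairs of an IP and an Input library the ratio ran from 2.67 to 3.72 over all 9 pairs.

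Calcb (ENSMUSG00000030666), the beta-CGRP gene, lies at chr7:114718643-114723365 on the plus strand. It reached 100.57, 107.63 and 86.05 TPM in the IP libraries, and 25.79, 43.97 and 45.49 TPM in the Input libraries. The groups did not overlap here either, but the Input libraries were uneven, with Input 1 well under the others. The means were 98.1 ± 11.0 TPM in IP and 38.4 ± 11.0 TPM in Input (SD, n = 3 each), a ratio of 2.55, and single pairs ran from 1.89 to 4.17.

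**Figure D1:**
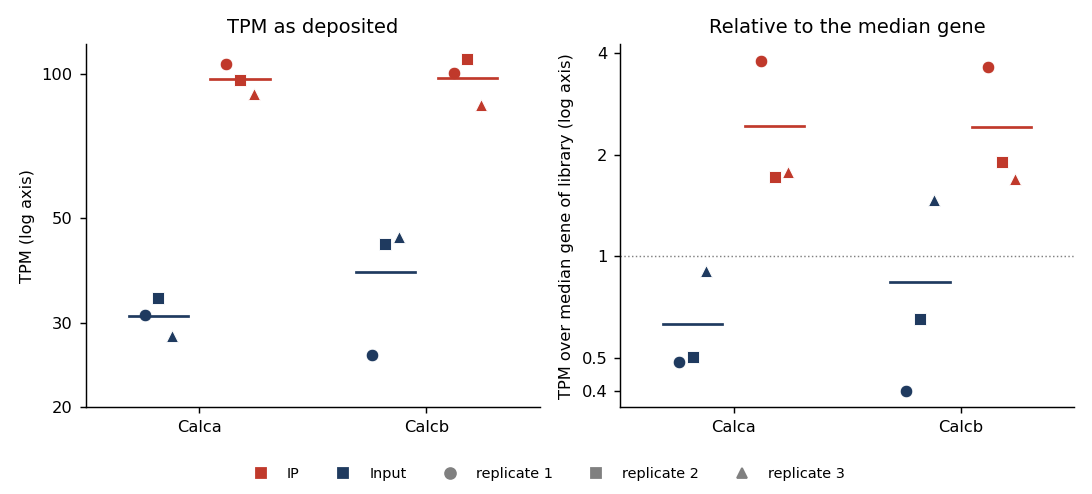
Abundance of Calca and Calcb in each library (points; circles, squares and triangles are replicates 1, 2 and 3; lines are group means), in TPM on the left and as multiples of the library's median gene on the right, both on log axes. Every IP point lies above every Input point in both panels, with the narrowest gap for Calcb on the right, between IP 3 at 1.69 and Input 3 at 1.46.

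Set against the median gene of each library, Calca stood at 3.79, 1.72 and 1.78 times that gene in the IP libraries, against 0.486, 0.505 and 0.908 times in the Inputs. It was thus above the middle of the listed genes in every IP library and below it in every Input library. Calcb stood at 3.64, 1.90 and 1.69 times the median gene in IP and at 0.401, 0.655 and 1.46 times in Input. In Input 3, then, Calcb was above the median gene. By rank, Calca was 941st, 1637th and 1658th of the listed genes in IP, and 4357th, 4334th and 2963rd in Input. Calcb was 989th, 1461st and 1745th in IP, and 4700th, 3754th and 1981st in Input. Relative to the median gene, the gap between the lowest IP and the highest Input library narrowed to 1.89-fold for Calca and 1.15-fold for Calcb. IP 1 was the highest library for both genes on this scale and Input 3 the highest Input.

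Both genes had every IP library above every Input library, on both scales. Of all listed genes, 1.7% did so in TPM as deposited and 6.95% relative to the median gene. By the ratio of the lowest IP to the highest Input value, Calca ranked 6th and Calcb 16th of 5538 in TPM. Relative to the median gene, Calca ranked 9th and Calcb 161st. The place of Calcb among all genes thus depended on the scaling more than that of Calca did.

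**Figure D2:**
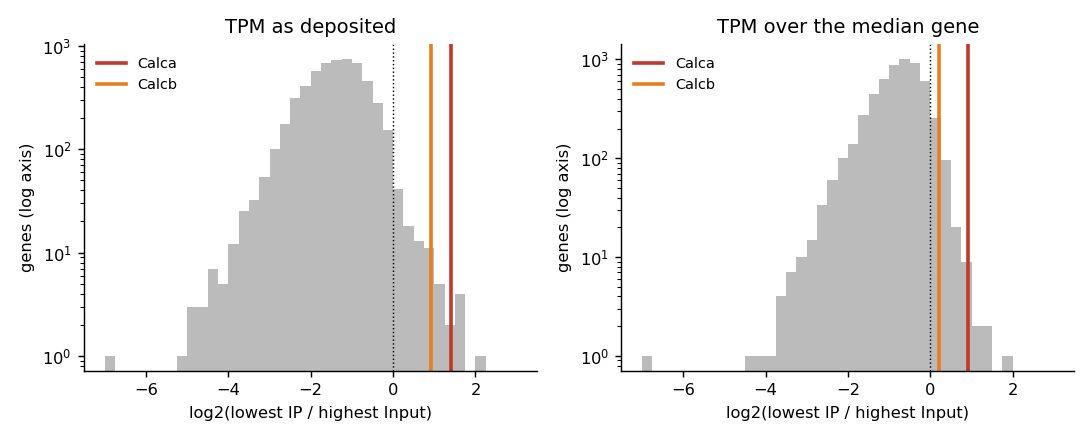
Number of genes (log axis) by the log2 ratio of the lowest IP to the highest Input value, in TPM (left) and relative to the median gene (right), in bins of 0.25. Values right of the dotted line at 0 are genes whose groups do not overlap with IP higher; the red line (Calca) lies near the right edge in both panels, and the orange line (Calcb) moves toward 0 on the right.

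Because the CGRP exon is so alike in both, the genes were also summed. Calca and Calcb together had 205.44, 204.58 and 176.68 TPM in IP and 57.08, 77.91 and 73.69 TPM in Input. A read assigned to the wrong gene of the pair stays in the sum, though TPM then divides it by the other transcript length (994 or 830 bases for Calca, 962 for Calcb). The sum showed the same separation, with means of 196 ± 16.4 and 69.6 ± 11.0 TPM (SD, n = 3 each) and a ratio of 2.81. The log2(sum + 1) difference was 1.49. A two-sided exact permutation test gave p = 0.1, the smallest value that 3 libraries against 3 allow. Without IP 1 and Input 3 the difference was 1.497.

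The balance of the genes was near even in the tagged fraction. The ratio of Calca to Calcb TPM was 1.04, 0.901 and 1.05 in the IP libraries, against 1.21, 0.772 and 0.620 in the Input libraries. The IP values lay inside the range of the Input values, which spread about 0.868 ± 0.308, against 0.999 ± 0.0852 in IP (SD, n = 3 each). The mean log2 ratio was -0.01 in IP and -0.26 in Input, a difference of 0.26 that did not pass a two-sided exact permutation test (p = 0.4). Without IP 1 and Input 3 the difference was 0.01. No difference between 3 libraries and 3 could pass this test, whose smallest p is 0.1.

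**Figure D3:**
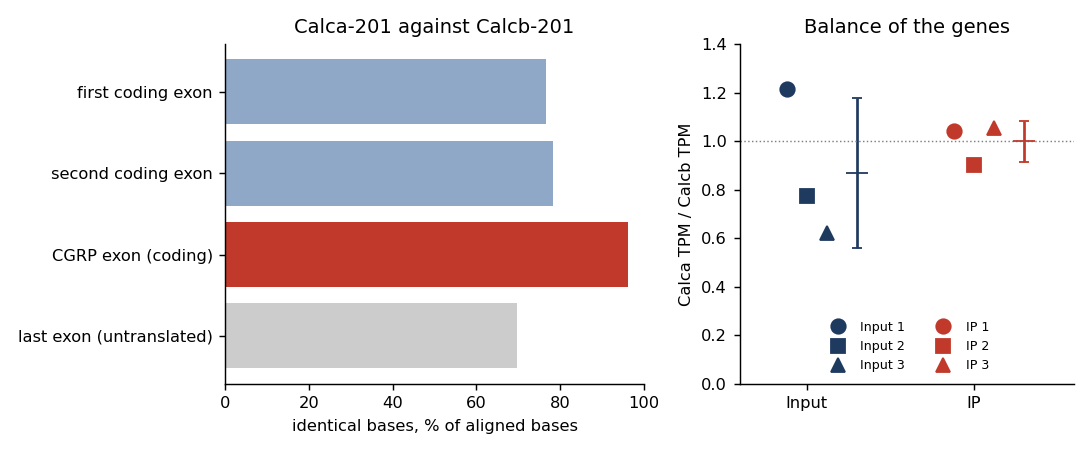
Left, identity between the Calca CGRP transcript and the Calcb transcript by exon, as a percentage of aligned bases; right, the ratio of Calca to Calcb TPM in each library, with group means and SD (n = 3 each). The CGRP exon stands out at 96.2%, and the 3 IP ratios lie within the span of the 3 Input ratios.

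Whether a transcript is enriched on tagged ribosomes is the question the 2 fractions address. In a linear model fitted with limma over all genes, neither member passed. Calca had a log2(TPM + 1) difference of 1.62 (SE 0.50, 95% interval 0.53 to 2.70), or 1.84 relative to the median gene, with an unadjusted p of 0.00651 and an adjusted p of 0.999. Calcb had 1.37 (SE 0.52, 95% interval 0.25 to 2.48), or 1.59 relative to the median gene, with an unadjusted p of 0.0202 and an adjusted p of 0.999. By unadjusted p the genes ranked 13th and 44th of 5538. In this fit 0% of all genes were called higher in IP and 0 lower, and an unadjusted p of 0.05 was passed by 53 genes in each direction.

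In TPM as deposited, the error that limma assigned to Calca was much larger than the spread of Calca itself. Its own within-group SD was 0.118 log2 units, the 15th smallest of 5538 genes, where the median gene had 0.664. The fit moderated this to 0.615, using a prior SD of 0.731 for genes of that abundance, which carried 9.34 degrees of freedom against 4 from the libraries. Calcb had an own SD of 0.336, ranked 531st, and a moderated SD of 0.635. The SE of both members in this fit therefore mostly reflects how much other genes of that level varied between pools. Calca was less even relative to the median gene. Its SD was then 48.6% of the mean in IP and 37.6% in Input, against 7.32% and 9.22% in TPM.

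Without IP 1 and Input 3, both genes were called higher, in 2 IP against 2 Input libraries. Calca then had a log2 difference of 1.496 (SE 0.19, limma adjusted p = 0.0053) and Calcb 1.49 (SE 0.28, limma adjusted p = 0.0180), where 2.18% of all genes were called higher. With each library centred on its median gene as well, Calca had 1.78 (SE 0.18, limma adjusted p = 0.00119) and Calcb 1.77 (SE 0.25, limma adjusted p = 0.00563), where 3.38% of all genes were called higher. Relative to the median gene, the difference of Calca hardly moved, from 1.84 over all 6 libraries to 1.82. That of Calcb rose from 1.59 to 1.81. The SE fell for both, in TPM as deposited from 0.50 to 0.19 for Calca and from 0.52 to 0.28 for Calcb. Removing this pair of libraries was a choice informed by the values of the libraries.

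**Figure D4:**
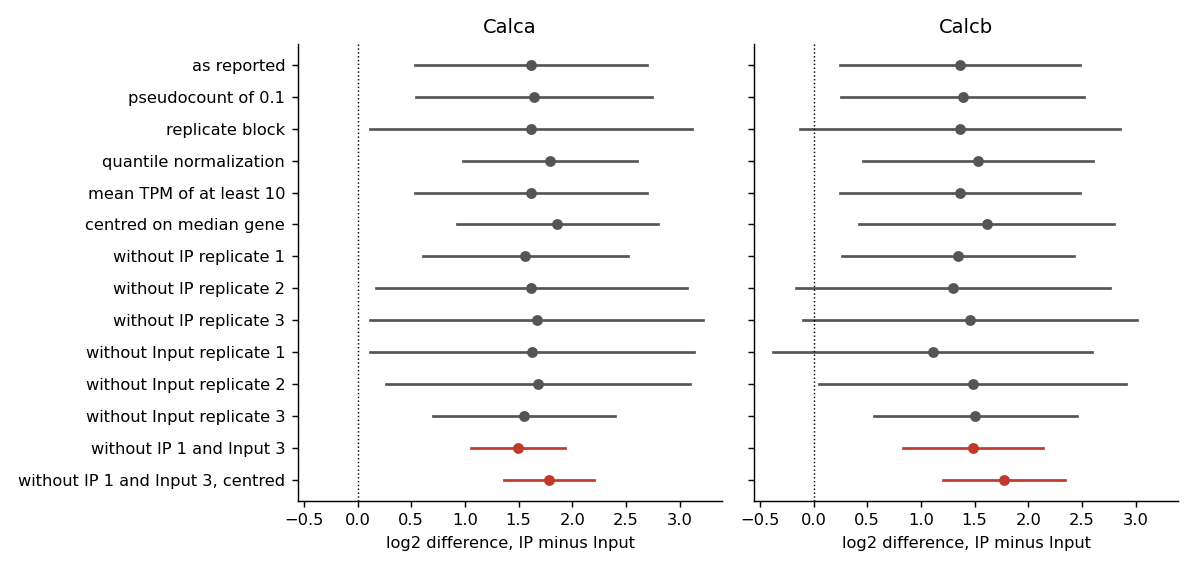
Log2 difference of Calca (left) and Calcb (right) between IP and Input with 95% intervals, under each way of fitting; red marks an adjusted p under 0.05. All points lie above 0, the Calca intervals do too, and red appears only where IP 1 and Input 3 were both left out.

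The genes whose profile over the 6 libraries was most like that of Calca were Gal, Ybx3, E2f1, Mcl1, Cela1 and Tspo. Likeness was the root mean square difference between log2(TPM + 1) profiles, each centred on the mean of its gene, and gene models and pseudogenes were left out. Gal, which encodes the neuropeptide galanin, was nearest, at 0.136 log2 units, where the median listed gene was at 1.09. It had 67.51, 65.03 and 73.09 TPM in IP and 23.67, 28.43 and 20.05 TPM in Input. The order of the Inputs matched Calca, with Input 2 highest and Input 3 lowest. That of the IP libraries did not: Gal was highest in IP 3, where Calca was lowest. Ybx3, a cold-shock domain protein that binds nucleic acids, followed at 0.194, and E2f1, a cell-cycle transcription factor, at 0.201. Mcl1, an inhibitor of apoptosis, Cela1, an elastase, and Tspo, a protein of the outer mitochondrial membrane, stood at 0.223, 0.224 and 0.258.

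Nearest to Calcb were Spp1, Cela1, Klf13, Serinc3, Isl1 and Tesc. Spp1, which encodes osteopontin, stood at 0.130 log2 units, with 685.61, 861.39 and 695.62 TPM in IP and 240.95, 358.25 and 400.31 TPM in Input. Like Calcb it was highest in IP 2 and lowest in Input 1. Isl1, a homeodomain factor that motor neurons need, stood at 0.179, with 28.37, 37.49 and 32.23 TPM in IP and 10.71, 14.58 and 16.39 TPM in Input. Klf13, a zinc finger factor, and Serinc3, a membrane protein, stood at 0.147 each, and Tesc, a calcium-binding protein, at 0.209. Cela1 was on both lists. Calcb itself was 10th nearest to Calca, and Calca 16th nearest to Calcb, of 5537 other genes, at a distance of 0.312. These distances rest on 6 libraries and are a description with no test.

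**Figure D5:**
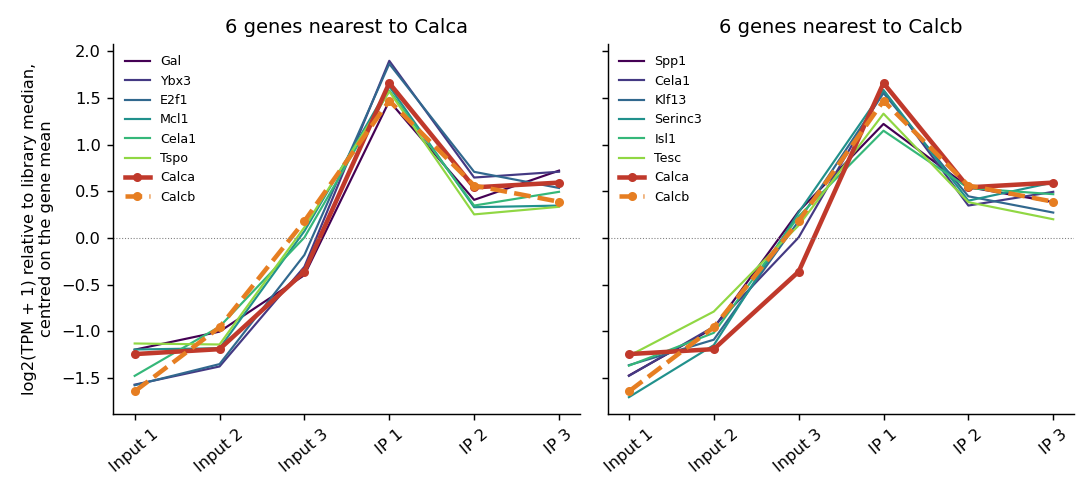
Profiles of Calca (red), Calcb (orange, dashed) and the 6 genes nearest to each over the libraries, as log2(TPM + 1) relative to the library median and centred on the gene mean; lines only join the values of 1 gene. Calca and Calcb part most at Input 3, where the genes nearest to Calcb lie with Calcb. Of the genes on the Calca list, Gal, Ybx3 and E2f1 lie nearer to Calca there, and Mcl1, Cela1 and Tspo nearer to Calcb.

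Beside the CGRP genes, 6 of 24 other neuropeptide genes on a textbook list had a row: Cartpt, Ucn, Cck, Penk, Sst and Gal. Calca and Calcb made up 14.5%, 11.7% and 9.87% of the summed TPM of these 8 genes in the IP libraries, against 1.72%, 1.82% and 9.93% in the Input libraries. Input 3 thus fell in the range of the IP libraries. The other 6 genes summed to between 1214 and 1613 TPM in IP. Their Input sums were 3260, 4200 and 669 TPM, most of it Cartpt. Without Cartpt in the sum, the CGRP share ran from 22.5% to 33.6% in IP, against 5.28%, 5.16% and 22.5% in the Input libraries. By level, Calca stood 3rd, 6th and 5th of the 8 in IP and 6th, 7th and 6th in Input. Gal was the 1 other peptide gene of the 6 above the median gene in the difference of IP and Input, at a relative log2 of 1.71. The median of the 6 was -0.36. With IP 1 and Input 3 left out, Gal was called higher and the other 5 (Cartpt, Ucn, Sst, Cck and Penk) lower in TPM as deposited. There 2.18% of all genes were called higher and 16.9% lower. With libraries centred, Gal was called higher and 3 (Cartpt, Ucn and Sst) lower, where 3.38% of all genes were called higher and 2.89% lower.

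Of 9 other genes of the CGRP family and its receptors, Ramp2 and Crcp had a row. Ramp2 is the partner of Calcrl in the adrenomedullin receptor and had 8.48, 65.32 and 20.75 TPM in IP and 26.11, 32.60 and 15.94 TPM in Input. These values overlap, and IP 2 was far above the rest. Crcp, a receptor component protein also found in RNA polymerase III, had 30.25, 56.52 and 48.58 TPM in IP and 70.96, 81.96 and 35.54 TPM in Input. The groups of Crcp overlapped through Input 3 in TPM as deposited. Relative to the median gene, every IP library lay below every Input library, as for 538 of all 5538 genes. Calcrl, Ramp1, Ramp3, Calcr, Adm, Adm2 and Iapp have no row, so the CGRP receptor itself was not compared here. Ide, the 1 gene with a row among 3 peptidases known to cut CGRP, had 8.24, 26.13 and 26.18 TPM in IP and 31.31, 17.29 and 7.16 TPM in Input.

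Genes that process and store peptides lay on both sides of the median gene. Of 11 measured genes of this list, 4 were above it and 7 below in the difference of IP and Input, and their median was -0.21 relative to it. None was called in all 6 libraries. Leaving out IP 1 and Input 3, 0 were called higher and 4 (Scg2, Scg5, Pcsk1n and Cpe) lower, against 16.9% of all genes, and with libraries centred 2 (Scg2 and Scg5) lower, against 2.89%. Scg2, a granin of dense-core vesicles, had 69.96, 346.95 and 265.60 TPM in IP and 876.03, 755.89 and 113.59 TPM in Input. Pcsk2, a convertase that cuts peptide precursors, had 9.55, 34.64 and 19.91 TPM in IP and 28.15, 35.67 and 17.42 TPM in Input.

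Cyclic AMP signalling genes, which act downstream of the CGRP receptor, had 11 of 25 members with a row and a median of 0.08 relative to the median gene, 6 above it and 5 below. None was called in all 6 libraries. Without IP 1 and Input 3, 0 were called higher and 2 (the G protein subunits Gnb1 and Gnb2) lower, against 2.18% and 16.9% of all genes. With libraries centred, 1 (Prkar2a, a regulatory subunit of protein kinase A) was called higher and 0 lower, against 3.38% and 2.89%. Gnas, the G protein subunit of the pathway, had 1074.64, 1900.91 and 1672.20 TPM in IP and 2423.28, 2001.29 and 160.49 TPM in Input, with Input 3 far below every other library. Splicing regulators of neuronal exons had 9 of 13 members with a row and a median of 0.06, with none called in all 6 libraries or in either form of the comparison without IP 1 and Input 3. Elavl2, Elavl3 and Elavl4, RNA-binding proteins of neurons, had relative log2 values of -0.82, 0.42 and 0.06, and Ptbp1 had 0.70. In TPM as deposited, 2 of the 9 (Elavl2 and Srsf3) had every IP library below every Input library, against 344 of all 5538 genes. Both overlapped relative to the median gene.

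Of 14 transcription factors known at the Calca enhancer or in motor neurons, 7 had a row, and 6 of these had a positive relative difference (median 0.46). None was called in all 6 libraries. Isl1 and Pou2f1 were called higher without IP 1 and Input 3 (2 of 7, against 2.18% of all genes), and with libraries centred too (against 3.38%). Usf1 and Usf2, which bind the Calca enhancer, had relative log2 values of 0.47 and 0.42, with overlapping groups. Fos, whose promoter drove the labelling, had 7.66, 19.05 and 16.03 TPM in IP and 12.22, 14.68 and 25 TPM in Input.

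Markers of cholinergic motor neurons, a cell type known to make CGRP, had positive relative differences, as Calca and Calcb did. Of the 10 markers 6 had a row (Chat, Slc18a3, Slc5a7, Ache, Isl1 and Prph). The relative log2 difference was above 0 for all 6, and its median was 1.22. Isl1 stands on the list of transcription factors too. Chat, Isl1 and Prph had every IP library above every Input library, in TPM as deposited and relative to the median gene. Of all genes, 1.7% and 6.95% did so. Slc18a3, Slc5a7 and Ache overlapped. Slc18a3 stood at 176.38 TPM in Input 3, above IP 1 (164.07) and IP 3 (131.96). Slc5a7 stood at 16.49 TPM in IP 1, below every Input library. Chat, the enzyme of acetylcholine synthesis, reached 42.45, 114.39 and 78.32 TPM in IP against 34.72, 36.05 and 40.07 TPM in Input. None of the 6 was called in all 6 libraries. Chat, Slc18a3, Slc5a7 and Isl1 (4) were called higher without IP 1 and Input 3, against 2.18% of all genes, and with libraries centred these and Prph (5), against 3.38%. Their summed level was 562 to 1075 TPM in IP and 417 to 629 TPM in Input, so the groups overlapped in the sum. Among the IP libraries, Chat, Slc5a7, Isl1 and Ache were lowest in IP 1, whereas Slc18a3 and Prph lay there between IP 2 and IP 3. Calca was highest in IP 1 and Calcb in IP 2. The part of motor neurons in the Calca and Calcb differences was not tested.

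Primary sensory neurons, whose axons also carry CGRP, had 10 markers on the list, Scn10a and Trpv1 among them, and 0 had a row. Pan-neuronal markers had 10 of 10 members with a row and a median relative difference of 0.16, with 7 above 0. The neurofilament genes Nefh, Nefm and Nefl, which are abundant in large axons, had relative log2 differences of 2.26, 1.38 and 1.2. Each had every IP library above every Input library in TPM as deposited and relative to the median gene, against 1.7% and 6.95% of all genes. These 3 were called higher without IP 1 and Input 3, and Syt1 and Stmn2 (2) lower, against 2.18% and 16.9% of all genes, and with libraries centred the same 3 higher and 0 lower, against 3.38% and 2.89%.

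Of the glial markers, the 3 measured astrocyte genes (Ntsr2, Agt and Gfap) all had relative log2 differences below 0 over all 6 libraries. Ntsr2 and Agt were called lower without IP 1 and Input 3, in TPM as deposited (against 16.9% of all genes) and centred (against 2.89%). Gfap was called in neither form. Its centred log2 value there was 0.005 relative to the median gene, where Ntsr2 had -1.19 and Agt -1.20. The 3 summed to 57.5 to 157 TPM in IP and 89.6 to 394 TPM in Input. The oligodendrocyte markers reported here (4 measured: Mbp, Mobp, Mag and Cnp) had a median relative difference of 0.0021. Against the same shares of all genes, 1 (Mag) was called lower without IP 1 and Input 3, and 0 with libraries centred. The 4 summed to 303 to 3719 TPM in IP and 396 to 3801 TPM in Input. In both sums IP 1 was the lowest IP library and Input 3 the lowest Input. Gfap alone was highest in Input 3, with 21.74, 35.75 and 67.28 TPM in the Input libraries. Ntsr2 (10.37 TPM) and Agt (11.92 TPM) were lowest there. In TPM, Calca was highest in IP 1 (104.87) among the IP libraries and lowest in Input 3 (28.20) among the Inputs. Calcb was highest in IP 2 (107.63) among the IP libraries and in Input 3 (45.49) among the Inputs. Ly6c1, the 1 endothelial marker with a row, had 50.28, 278.09 and 67.32 TPM in IP and 34.86, 35.36 and 21.88 TPM in Input. It was called higher without IP 1 and Input 3 in both forms, against 2.18% and 3.38% of all genes. Ctss, the 1 microglial marker, had 12.03 to 15.69 TPM in IP and 15.27 to 35.60 TPM in Input and was not called. The part of these cells in the Calca and Calcb values was not tested.

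Calca and Calcb are neighbours on chromosome 7, transcribed away from each other, with start sites 82286 bases apart. Of 18 other annotated genes that start within 500 kb of either, only Psma1 and Gm15500 had a row. Gm15500, a transcribed processed pseudogene between the CGRP genes, had 373.02, 244.79 and 292.49 TPM in IP and 280.85, 291.43 and 162.46 TPM in Input, and reads of a processed pseudogene can stem from its parent gene. Psma1, a proteasome subunit, had 113.04, 217.49 and 224.47 TPM in IP and 320.22, 297.26 and 144.07 TPM in Input. In TPM as deposited both overlapped between the groups. Relative to the median gene Gm15500 overlapped, whereas Psma1 had every IP library below every Input library, as 538 of all 5538 genes did. Their relative log2 values were 0.56 and -0.21. Neither gene was called in all 6 libraries or without IP 1 and Input 3, centred. Neighbouring genes such as Insc, Cyp2r1 and Pde3b have no row.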

How the data were processed

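RNA of eGFP immunoprecipitates (IP) and of tissue (Input) was sequenced in 3 libraries each, made with a Nextera kit per the labels. The authors deposited TPM, per the file header. RSEM, DESeq and the build mm10 appear in the submitters' processing notes without versions. Their roles and the aligner are not stated there. TPM keep no depth, so neither counting intervals nor detection floors can be given. No column of values was left unused.

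TPM were transformed to log2(TPM + 1) and IP was compared with Input by limma 3.58.1 in R 4.3.3 (lmFit, eBayes with a variance trend) over all 5538 genes, with Benjamini-Hochberg adjustment at 0.05. The fit was tested on simulated data. The sum and ratio of the members were compared by exact two-sided permutation tests. Sequences came from GENCODE M21 transcripts, aligned with Biopython 1.88. Named genes were Calca, Calcb, the 6 genes nearest to each, members of 14 textbook lists and genes within 500 kb; 1 list member is not reported here. Members, lists and the alternative without IP 1 and Input 3 were chosen with earlier results of these data known. Alternatives were another pseudocount, a low-value filter, quantile normalization, centring, a replicate block and leaving out libraries. Centring combined with leaving out IP 1 and Input 3 was added after the data were seen.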

Additional observations from a re-analysis of the deposited data

How the results depend on the processing

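Calca and Calcb were higher in IP under all 13 alternatives of the limma fit, and their sum under all 10 of its own. Both were called only without IP 1 and Input 3 together (log2 1.496 and 1.49; centred 1.78 and 1.77). In the other alternatives the limma adjusted p of Calca lay between 0.239 and 0.9997. With each library left out in turn, Calca had 1.55 to 1.68, Calcb 1.11 to 1.51, their log2 sum differed by 1.35 to 1.57, and their log2 ratio by 0.04 to 0.53, the highest without Input 1 and the lowest without Input 3. Genes called higher numbered 0 to 19 and lower 0 to 2 in these fits, 19 and 2 without Input 3 and 1 and 1 without Input 1. Without IP 1 and Input 3, 121 were higher and 936 lower (centred, 187 and 160). Genes whose IP libraries all exceeded all Inputs numbered 94, 385 after centring, 133 to 371 with each library left out (371 without IP 1, 180 without IP 2, 203 without Input 2, 200 without Input 3) and 501 without IP 1 and Input 3. Of 54 other genes with values in the text, none was called in all 6 libraries. Over the 13 alternatives 63 of their values were called, all without IP 1 and Input 3; of these Pcsk1n (-0.72) and Gnb1 (-0.80) had the sign opposite to that over all 6.

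A replicate block gave 13 genes higher and 0 lower. The differences of Calca and Calcb were the same by construction, with SE of 0.77 and 0.76 (limma adjusted p = 0.9996 each). Same-numbered libraries deviated together at r = -0.10, 0.25 and -0.17 across genes, so the numbers were not taken to pair the libraries.

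TPM keep no depth, so the counting error of either gene is unknown. How reads of the CGRP exon were divided between the genes is unknown too, and the calcitonin and CGRP forms of Calca are not separate in the table.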
